A study of Homo sapiens with 6 samples.

Results

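Aminoacyl-tRNA synthetases are the enzymes that join each amino acid to its transfer RNA, and the genes for these enzymes are described here in A549 cells with a knockdown of C19orf12. Members were taken by gene symbol and not by their values, though the set was chosen with earlier results of these data known. They are 20 genes for cytosolic synthetases, 17 for mitochondrial synthetases, and AIMP1, AIMP2 and EEF1E1, which encode the 3 non-enzymatic scaffold proteins of the multi-synthetase complex. These 40 genes are among 20824 listed in any library. All 40 had counts in every library and all 40 could be tested. KARS1 and GARS1, for lysine and glycine, encode the enzymes of both compartments and are counted as cytosolic.

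A549 is a human lung adenocarcinoma line, and C19orf12 encodes a small membrane protein of mitochondria and the endoplasmic reticulum. The knockdown group, named shC19orf12-1 in all its labels, had 3 libraries, and the control group, which carried a scrambled hairpin (sh-scramble) and is labelled as the wild-type control, also had 3. Both groups thus carry a hairpin. The labels do not say whether the libraries of a group came from separate cultures or from 1 clone, so p-values measure only the spread between these libraries. In RNA from bulk cultures, fewer cells that express a gene and less RNA of that gene per cell cannot be told apart.

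Each synthetase recognises its amino acid and the matching transfer RNAs, uses ATP to activate the amino acid, and so sets the meaning of the genetic code. Human cells keep a cytosolic set, a mitochondrial set encoded in the nucleus for the translation of mitochondrial DNA products, and a few genes that serve both. Several cytosolic enzymes are bound in the multi-synthetase complex, and the others act free of it. Many cytosolic synthetase genes are known targets of ATF4, the transcription factor that is made when amino acids are scarce or the endoplasmic reticulum is stressed.

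C19orf12 itself had 24.2, 26.4 and 25.2 CPM (counts relative to the library total, scaled between libraries by TMM) in the knockdown libraries, against 42.5, 41.1 and 63.3 CPM in the scramble libraries. The groups did not overlap, and the log2 fold change (knockdown over scramble) was -0.95 ± 0.20 (SE, n = 3 each; edgeR quasi-likelihood test, Benjamini-Hochberg adjusted p = 0.015). The call was lost when any 1 of the knockdown libraries was left out, with an adjusted p of 0.0908 at the highest. Total estimated counts ran from 10229890 to 10647587 per library. Of the markers, KRT8 and KRT18 of epithelial cells and AKR1B10, AKR1C1 and ALDH1A1, which are high in A549, had between 1150 and 7057 CPM in the 6 libraries. KRT8 had 4653, 4633 and 4559 CPM in knockdown libraries, against 1155, 1150 and 1688 CPM in scramble libraries, a log2 difference of 1.79 ± 0.17 (SE; edgeR adjusted p = 0.000246). EPCAM and KRT19, also epithelial, were at 2.70 CPM or below. FGB, also listed as an A549 marker, was not high in the scramble libraries, with 16.3, 16.5 and 11.04 CPM. It had 428, 471 and 438 CPM in knockdown libraries, a log2 difference of 4.93 ± 0.21 (SE; edgeR adjusted p = 3.21e-06). Of the alveolar markers SFTPC and SFTPA1 were at 0.10 CPM or below and SFTPB at 2.14 to 3.58 CPM. Of the endothelial markers VWF was at 0.10 CPM or below and PECAM1 at 2.71 to 3.90 CPM, and of the leukocyte markers PTPRC was at 1.60 CPM or below and CD68 at 36.2 to 52.7 CPM. Of the fibroblast markers DCN was at 0.19 CPM or below and LUM at 0.60 CPM or below. The third, COL1A1, had 23.5, 25.7 and 24.0 CPM in knockdown libraries and 36.2, 39.5 and 47.6 CPM in scramble libraries (edgeR adjusted p = 0.0191), and the part of these marker differences in the results was not tested.

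Scramble replicate 3 stood apart, and it did so in the synthetase genes by their GC content. All 15 members whose transcripts had less than 45% GC were lower in it than in scramble replicates 1 and 2, by a median log2 difference of -0.86 (range -1.16 to -0.09). The 25 members with more GC were all higher in it, 6 between 45% and 50% with a median of 0.31, and 19 at 50% or above with a median of 0.52. Over all genes tested the medians of the same 3 classes were -0.87, -0.0036 and 0.48. Across the 40 members the shift and the GC content had a Pearson correlation of 0.83, and across 14207 genes it was 0.695. These are descriptions within 1 set of libraries, since genes are not independent replicates. Values are therefore given for all 6 libraries, then without scramble replicate 3 and, where it matters, after a correction for GC content.

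**Figure D1:**
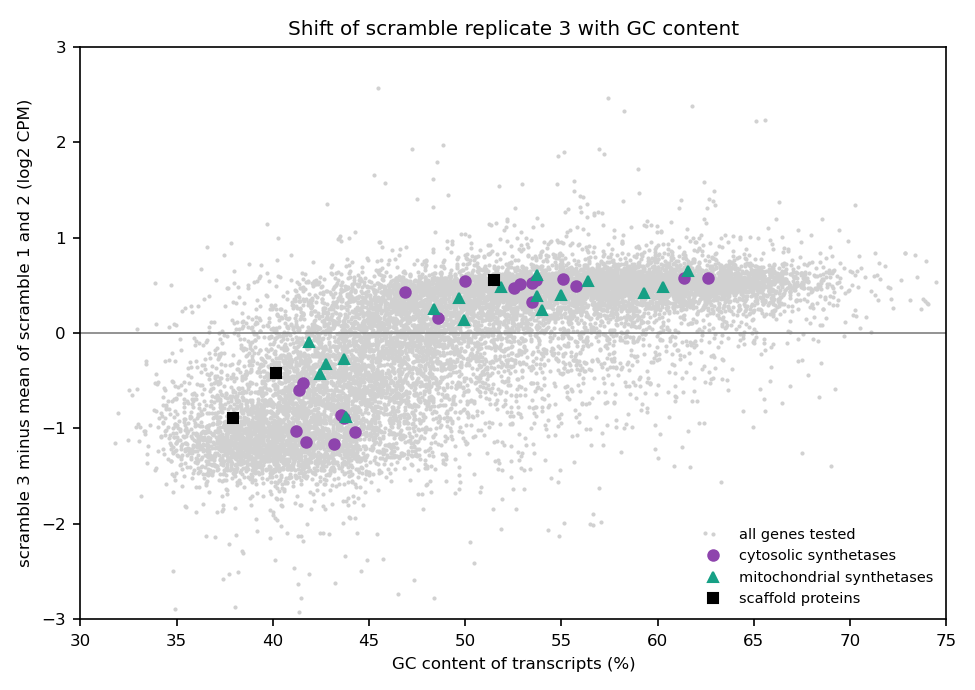
Log2 difference between scramble replicate 3 and the mean of scramble replicates 1 and 2 (vertical axis), against the GC content of the gene's transcript in percent (horizontal axis). Small points are all genes with a GC value within the axes and large points are the members by list: those below 45% GC lie below 0 and the others above it.

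Of the 20 cytosolic synthetase genes, 5 fell in the knockdown, AARS1, MARS1, SARS1, WARS1 and YARS1, and 1 rose, RARS1 (edgeR adjusted p under 0.05 over all 14812 genes tested). Over all genes 5.64% fell and 5.89% rose in the same test. The other 14 did not pass, and the least abundant of the 20 per length was HARS1, for histidine. The median log2 fold change of the 20 was -0.06, beside 0.02 for all genes tested. In either direction 11.5% of all genes passed. Of the 20, 10 passed at an unadjusted p under 0.05, as did 25.4% of all genes.

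SARS1 (Entrez gene 6301, chromosome 1), the seryl-tRNA synthetase, had 163, 166 and 165 CPM in the knockdown libraries, against 268, 254 and 360 CPM in the scramble libraries. The knockdown libraries lay close together, every scramble library lay above them, and the log2 fold change was -0.83 ± 0.17 (SE, n = 3 each; edgeR adjusted p = 0.0126). YARS1 (gene 8565, chromosome 1), for tyrosine, had 222, 238 and 227 CPM in the knockdown, against 334, 338 and 472 CPM in scramble. Its groups did not overlap either, with a log2 fold change of -0.74 ± 0.17 and an adjusted p of 0.0231. WARS1 (gene 7453, chromosome 14), for tryptophan, which is also known as an interferon-induced gene, had 173, 164 and 167 CPM in the knockdown and 243, 239 and 352 CPM in scramble. All scramble values were again higher, with a log2 fold change of -0.73 ± 0.18 and an adjusted p of 0.0306.

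MARS1 (gene 4141, chromosome 12) is the enzyme for methionine and so for the start of proteins made in the cytosol. It had 375, 347 and 362 CPM in the knockdown libraries, against 512, 518 and 757 CPM in the scramble libraries. Its log2 fold change was -0.72 ± 0.18 (SE, n = 3 each; edgeR adjusted p = 0.0301), with no overlap between groups. AARS1 (gene 16, chromosome 16), for alanine, had 548, 539 and 539 CPM in the knockdown, against 738, 738 and 1066 CPM in scramble. It was the most abundant synthetase per length, at 158 ± 1.30 FPKM (fragments scaled by gene length and depth) in the knockdown and 255 ± 44.7 FPKM in scramble (SD, n = 3 each), and its log2 fold change on counts was -0.64 ± 0.17 with an adjusted p of 0.0409. In all 5 genes scramble replicate 3 was the highest library, and scramble replicates 1 and 2 were also above all knockdown libraries.

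RARS1 (gene 5917, chromosome 5), the arginyl-tRNA synthetase of the multi-synthetase complex, went the other way. It had 110, 122 and 117 CPM in the knockdown libraries, against 79.3, 78.7 and 52.3 CPM in the scramble libraries, with scramble replicate 3 the lowest of all. The log2 fold change was 0.73 ± 0.19 (SE, n = 3 each; edgeR adjusted p = 0.0373). Leaving out any 1 of the knockdown libraries ended all 6 calls. RARS1 also missed the threshold when scramble replicate 1 (adjusted p = 0.0541) or 2 (0.0607) was left out, and AARS1 with limma-voom (0.051).

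**Figure D2:**
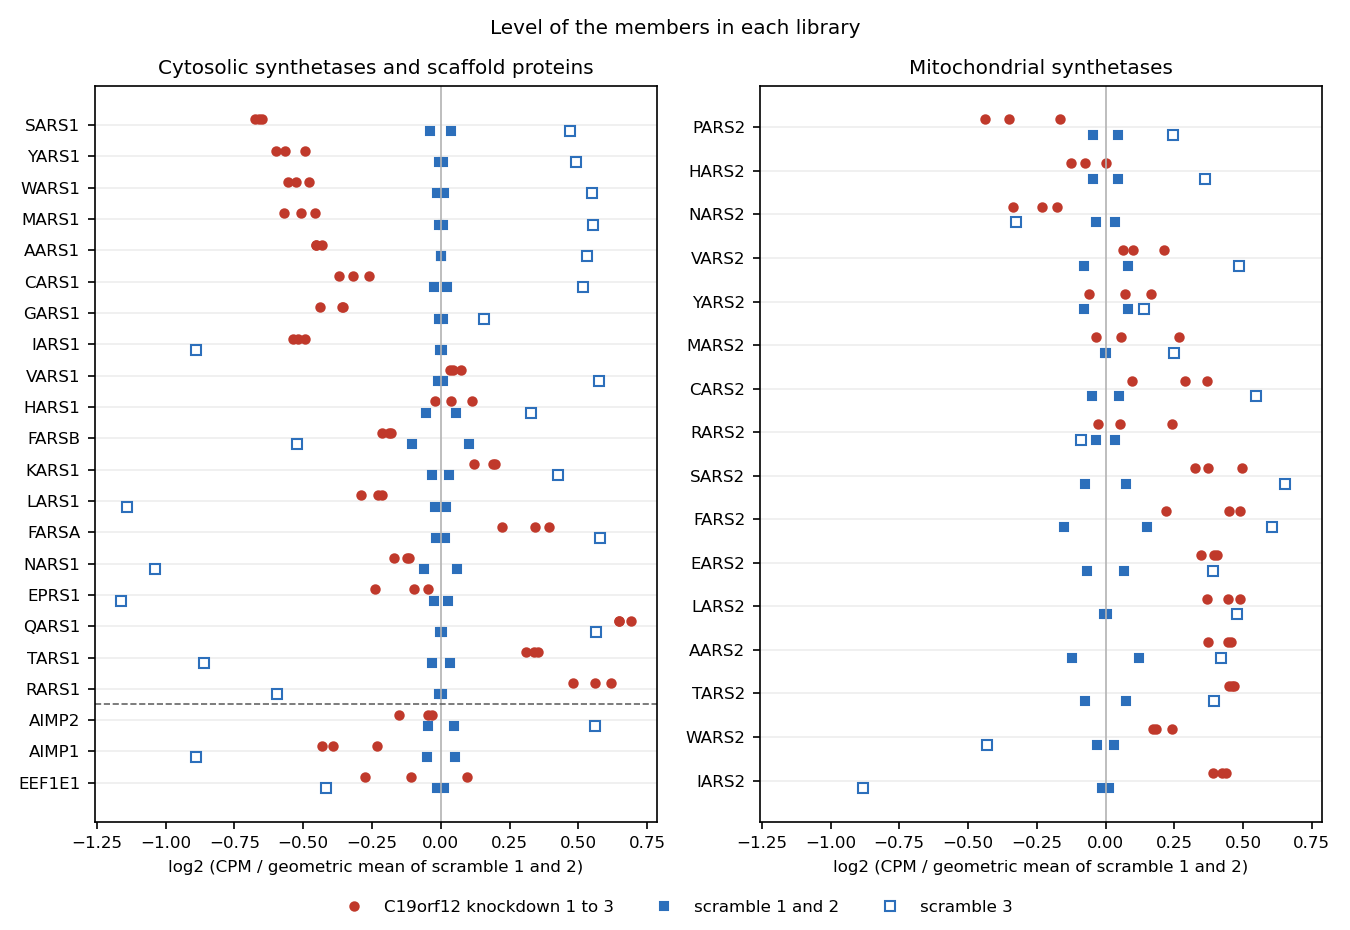
Level of the synthetase and scaffold genes in each of the 6 libraries, as the log2 of CPM over the geometric mean of scramble replicates 1 and 2 (horizontal axis), with knockdown points above scramble points for each gene. In SARS1, YARS1, WARS1, MARS1 and AARS1 the 3 knockdown points lie left of all 3 scramble points, and in RARS1 right of them.

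Without scramble replicate 3 the spread between libraries was much smaller, with an edgeR coefficient of variation between libraries of 2.97%, against 18.9% with all libraries. Of all genes tested, 49.5% then passed, 23.8% lower and 25.7% higher. Of the cytosolic synthetase genes 17 of 20 passed, 12 lower and 5 higher. The 6 genes kept their directions, with log2 fold changes of -0.66 for SARS1, -0.55 for YARS1, -0.52 for WARS1, -0.51 for MARS1, -0.45 for AARS1 and 0.56 for RARS1, all smaller in size than with all libraries. With the correction for GC content, 11 of 20 passed, 8 lower and 3 higher, where 31.2% of all genes passed, 17.2% lower and 14% higher.

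In 4 low-GC genes the value turned on that library. IARS1, the isoleucyl-tRNA synthetase, had 545, 552 and 561 CPM in the knockdown libraries, against 789, 792 and 427 CPM in the scramble libraries. Scramble replicate 3 lay below the knockdown and the other scramble libraries far above it, so the groups overlapped, and the log2 fold change was -0.28 (edgeR adjusted p = 0.506). With that library left out it was -0.52 (adjusted p = 3.07e-12), and with the GC correction -0.43 (adjusted p = 0.0196). EPRS1, the joined enzyme for glutamate and proline, LARS1 for leucine and NARS1 for asparagine had positive log2 fold changes with all libraries, 0.17, 0.05 and 0.13, that did not pass. They were negative and passed once scramble replicate 3 was left out, at -0.13, -0.24 and -0.14, and none of the 3 passed with the GC correction.

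GARS1, for glycine in both compartments, had 368, 348 and 367 CPM in the knockdown, against 473, 468 and 525 CPM in scramble. The groups did not overlap and the log2 fold change was -0.44 (edgeR adjusted p = 0.0665), and -0.38 (5.5e-09) without scramble replicate 3. CARS1, for cysteine, had a log2 fold change of -0.51 (adjusted p = 0.106), and -0.32 (7.28e-06) without that library. QARS1, the glutaminyl-tRNA synthetase, had 218, 211 and 211 CPM in the knockdown and 134, 135 and 199 CPM in scramble. Its knockdown values lay above all scramble values, at 0.45 (adjusted p = 0.162) with all libraries and 0.66 (1.32e-11) without scramble replicate 3. TARS1, for threonine, was likewise positive, at 0.57 (adjusted p = 0.148) and 0.33 (1.61e-07). All 4 of these genes passed with the GC correction in the same direction. In FARSA, FARSB, HARS1, KARS1 and VARS1 the groups overlapped, with log2 fold changes from -0.17 (VARS1) to 0.10 (FARSA). With scramble replicate 3 left out FARSA (0.32, adjusted p = 0.000267) and KARS1 (0.17, 0.00247) passed as higher and FARSB (-0.20, 0.00619) as lower, while HARS1 and VARS1 did not pass.

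In all, 7 of the 20 cytosolic genes had every knockdown library below every scramble library (18.6% of all genes tested), and 3 had every one above (18.4%). With scramble replicate 3 left out these were 12 and 6 of 20, where 31.6% and 32.7% of all genes were so separated.

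**Figure D3:**
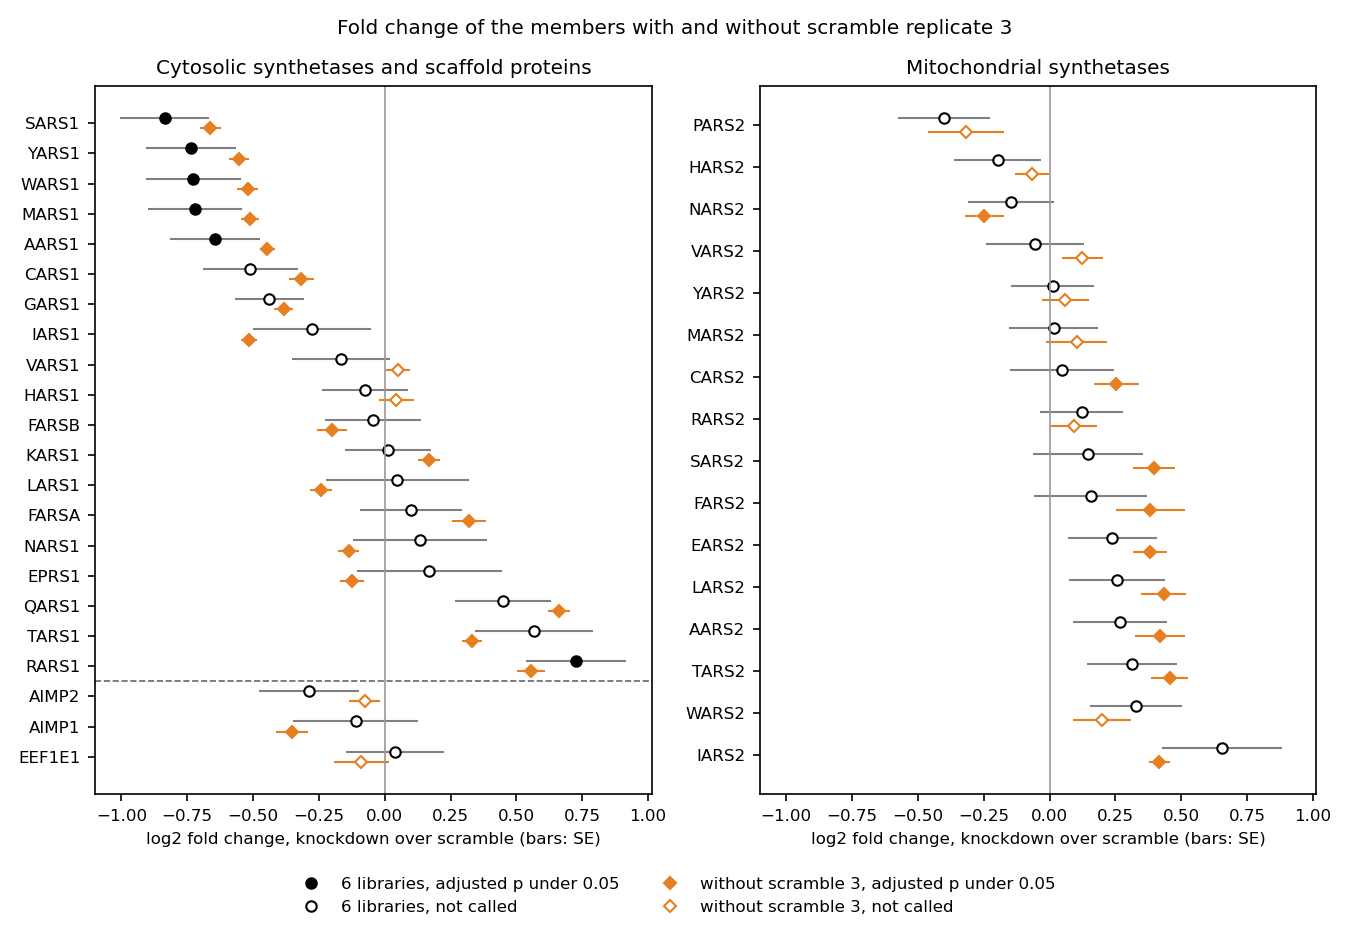
Log2 fold change (knockdown over scramble) of the members by edgeR, with all 6 libraries and without scramble replicate 3, and bars of 1 SE on either side. Filled symbols passed at an adjusted p of 0.05: SARS1, YARS1, WARS1, MARS1 and AARS1 on the negative side and RARS1 on the positive side with all libraries, and many more without scramble replicate 3.

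A list of 13 cytosolic genes that are commonly named as ATF4 targets held all 5 genes that fell and none that rose, with a median log2 fold change of -0.44. It held 11 lower and 1 higher (TARS1) when scramble replicate 3 was left out. Over all genes 5.64% fell and 5.89% rose with all libraries, and 23.8% and 25.7% did without that library. The other 7 cytosolic genes, among them FARSA, FARSB, HARS1, KARS1, QARS1 and RARS1, held 1 that rose and none that fell, with a median of 0.10, and without scramble replicate 3 they held 4 higher and 1 lower. Summed per length, the 13 listed genes had 1116 ± 9.43 FPKM in the knockdown and 1541 ± 15.6 FPKM in scramble, and the 7 others had 335 ± 4.18 FPKM and 302 ± 6.72 FPKM (SD, n = 3 each). The list was drawn up with earlier results of these data known, so the split is a description and was not tested. ATF4 itself had 603, 625 and 605 CPM in the knockdown libraries, against 658, 641 and 973 CPM in the scramble libraries. Its log2 fold change was -0.31 and did not pass (edgeR adjusted p = 0.329), and without scramble replicate 3 it was -0.089 and passed as lower (0.0237).

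ATF4 binds, with C/EBP partners, to an element whose core is TGATGNAA, or TTNCATCA read on the other strand. The RefSeq promoter table (GRCh38.p14) held 33 of the 40 members. Within the 250 bases before the start, 4 of these 33 genes (12.1%) held the core on either strand, against 3.89% of 27305 genes in the table. They were AARS1, which fell, GARS1, IARS1 and the mitochondrial YARS2. These stretches are printed because they carry the core, in capitals, each 5′ to 3′ on the strand of its gene.
AARS1: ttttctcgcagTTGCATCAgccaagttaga
GARS1: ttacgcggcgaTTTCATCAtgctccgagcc
IARS1: ttttcagcgcgTTGCATCAcctcc
YARS2: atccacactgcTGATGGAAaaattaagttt
The AARS1 stretch is at chr16:70289675-70289704 on the minus strand, that of GARS1 at chr7:30594834-30594863 on the plus strand, that of IARS1 at chr9:92293698-92293721 on the minus strand, and that of YARS2 at chr12:32756076-32756105 on the minus strand. The core of IARS1 ends 6 bases before the start, while the cores of AARS1 and YARS2 end 180 and 190 bases before it. That of GARS1 ends 26 bases before the start in its promoter entry. Another promoter entry of GARS1, at chr7:30594485-30594784 with an earlier start, had no match. MARS1, SARS1 and WARS1 had no match in this window. YARS1, which also fell, had no promoter entry and was not searched. A match is a string of letters and not a measured binding site.

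Of the multi-synthetase complex, whose 11 genes include 8 synthetases and the 3 scaffold proteins, 1 fell (MARS1) and 1 rose (RARS1). The median log2 fold change was 0.04. Over all genes 5.64% fell and 5.89% rose. Without scramble replicate 3 the median of the complex was -0.09, and with the GC correction it was -0.12. Without that library 5 of its genes were lower and 3 higher, where 23.8% and 25.7% of all genes were. Of the 12 free cytosolic synthetases 4 fell and none rose, with a median of -0.30. Without scramble replicate 3 there were 8 lower and 2 higher, with a median of -0.26, and with the GC correction the median was -0.37. Scramble replicate 3 was shifted by a median log2 difference of -0.60 in the complex genes and 0.48 in the free ones. By the 2 structural classes of catalytic domain, class I held 3 that fell and 1 that rose of 10, and class II held 2 that fell of 10.

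With all libraries and no GC correction, no scaffold gene passed in edgeR, DESeq2 or limma-voom. None had an unadjusted edgeR p under 0.05 there. AIMP1, which can also be released as a cytokine, had 69.7, 80.1 and 71.7 CPM in the knockdown, against 97.4, 90.9 and 50.8 CPM in scramble. The groups overlapped through scramble replicate 3, with a log2 fold change of -0.11, and without it -0.35 (edgeR adjusted p = 4.52e-05). With the GC correction AIMP1 was at -0.30 and passed (edgeR adjusted p = 0.0163). AIMP2, on which the complex is assembled, was at -0.29 (adjusted p = 0.396) and EEF1E1, also called p18, at 0.04 (0.931).

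None of the 17 mitochondrial synthetase genes passed in edgeR with all libraries. A total of 3 had an unadjusted p under 0.05, against 25.4% of all genes, and DESeq2 and limma-voom each called 1, where they called 12.8% and 11.2% of all genes. Of the 17 log2 fold changes 13 were positive, with a median of 0.15, beside 0.02 for all genes tested. Without scramble replicate 3 the median was 0.25, and 9 genes passed as higher and 1 as lower, NARS2 for asparagine. Over all genes 25.7% then passed as higher and 23.8% as lower. With the GC correction 5 passed as higher and 1 as lower, with a median of 0.13, where 14% and 17.2% of all genes passed.

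IARS2, the mitochondrial enzyme for isoleucine and the most abundant of its compartment, had 262, 254 and 260 CPM in the knockdown, against 195, 192 and 105 CPM in scramble. Its log2 fold change was 0.66 (adjusted p = 0.103) with all libraries and 0.42 (8.24e-09) without scramble replicate 3, again with no overlap.

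A further 7 that passed as higher without scramble replicate 3 were AARS2, CARS2, EARS2, FARS2, LARS2, SARS2 and TARS2, at log2 fold changes of 0.25 to 0.46. In all of them but TARS2 the groups overlapped once scramble replicate 3 was counted. PARS2, for proline and the least abundant synthetase, had 3.23 ± 0.311 FPKM in the knockdown and 4.43 ± 0.285 FPKM in scramble (SD, n = 3 each), and its log2 fold change of -0.40 on counts did not pass (adjusted p = 0.189). HARS2, MARS2, RARS2, VARS2, WARS2 and YARS2 passed neither with all libraries, nor without scramble replicate 3, nor with the GC correction.

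The summed levels of the cytosolic and mitochondrial sets lay on opposite sides of scramble. Summed per length, the 20 cytosolic genes had 1447, 1448 and 1459 FPKM in the knockdown libraries, against 1842, 1822 and 1865 FPKM in the scramble libraries. The 17 mitochondrial genes summed to 266, 265 and 276 FPKM in the knockdown, against 241, 240 and 229 FPKM in scramble. The ratio of the sums was 5.43, 5.46 and 5.28 in the knockdown and 7.65, 7.58 and 8.15 in scramble. Neither sum overlapped between groups, and in both sums scramble replicate 3 lay near the other scramble libraries, although its single genes did not. FPKM lacks the TMM scaling of the CPM values, whose factors were 1.043 and 1.05 in scramble replicates 1 and 2. They were 0.971 in scramble replicate 3 and 0.9783 to 0.9824 in the knockdown. The sums, but not their ratio, therefore depend on this scaling. The sums are dominated by the abundant genes and are given without a test.

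Pairing the cytosolic and the mitochondrial gene for the same amino acid gives a comparison inside each library. In 7 of 17 pairs the log2 ratio of their FPKM, cytosolic over mitochondrial, was lower in every knockdown library than in every scramble library, in 2 it was higher, and in 8 the groups overlapped. With 3 libraries against 3 the 2-sided exact permutation test cannot go below p = 0.1, which these 9 pairs reached, with an adjusted p of 0.189 over the 17 pairs. No pair could therefore pass 0.05. The share of other gene pairs whose ratios do not overlap was not computed, so these counts only describe the synthetase pairs. Among single genes, 18.6% were lower in CPM without overlap and 18.4% higher. The glutamate and proline pairs share EPRS1, so the 17 pairs are not all separate comparisons. The phenylalanine pair uses FARSA and not FARSB.

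Isoleucine gave the most even values. The log2 ratio of IARS1 to IARS2 was 0.69, 0.76 and 0.75 in the knockdown libraries, against 1.65, 1.67 and 1.66 in the scramble libraries, a difference of -0.93, so that the cytosolic transcript was 1.66 times as abundant as the mitochondrial one in the knockdown and 3.16 times in scramble. The GC contents of the genes are 43.7% and 43.8%, and the ratio in scramble replicate 3 differed from the other scramble libraries by -0.0041, although each gene alone was well below them there. The pairs next closest in GC content were arginine (difference of -0.48) and asparagine (1.5). Their ratios in scramble replicate 3 differed from the other scramble libraries by -0.49 and -0.68. Serine had log2 ratios of 2.16, 2.22 and 2.04 in the knockdown, against 3.32, 3.10 and 3.05 in scramble, a difference of -1.02. Here SARS1 fell while SARS2 was at 0.15 (edgeR adjusted p = 0.728).

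For alanine, AARS1 was 30.6 times as abundant as AARS2 in the knockdown and 57.3 times in scramble, a log2 difference of -0.91. For tryptophan, WARS1 was 11.4 times as abundant as WARS2 in the knockdown and 23.5 times in scramble, a log2 difference of -1.04, and here scramble replicate 3 was 0.98 above the other scramble libraries. Tyrosine (-0.73), methionine (-0.71) and cysteine (-0.56) were lower too, and arginine (0.64) and asparagine (0.38) higher. Without scramble replicate 3, 10 pairs were lower without overlap, 2 higher, and 5 overlapped. Of single genes 31.6% were lower in CPM without overlap in that set, and 32.7% higher. The differences for glutamate and threonine then changed sign, that for asparagine was 0.16, that for leucine was -0.68, against -0.14 with all libraries, and that for proline was 0.19, against 0.66.

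**Figure D4:**
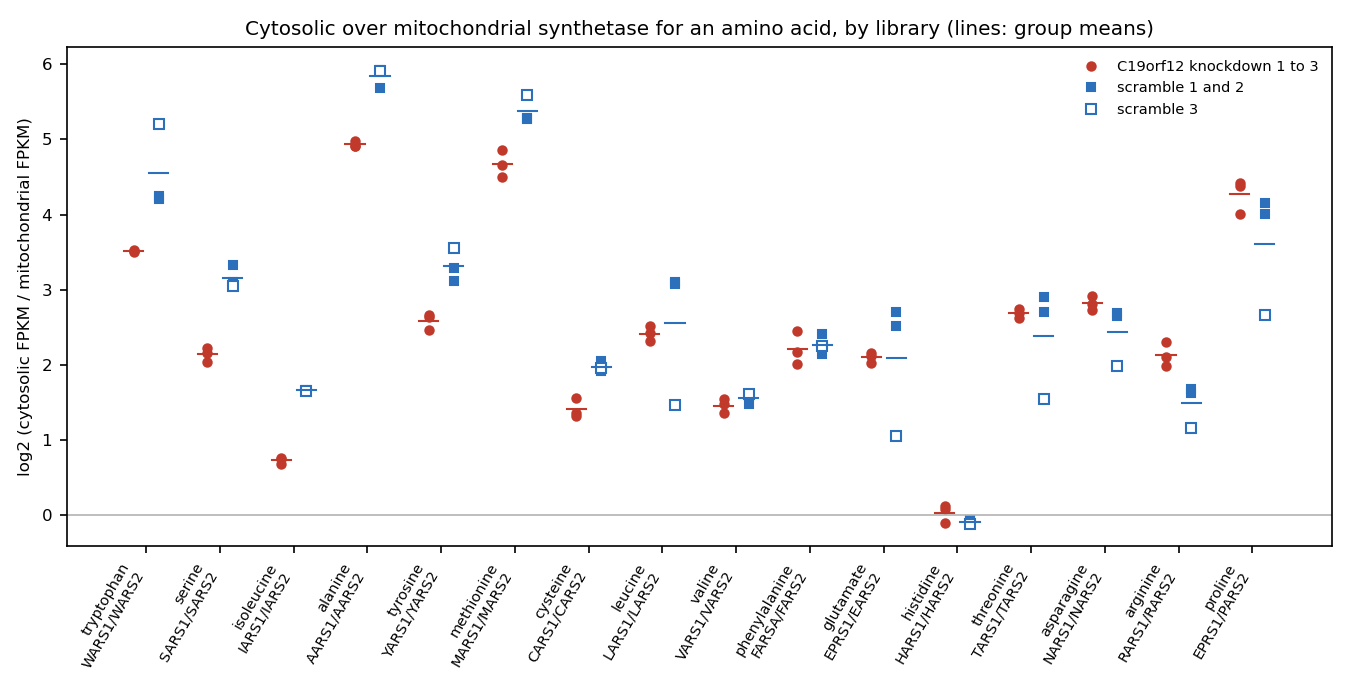
Log2 ratio of the FPKM of the cytosolic over the mitochondrial gene by amino acid, 1 point per library and short lines for group means, with knockdown left of scramble. For isoleucine the knockdown points lie at 0.69 to 0.76 and the scramble points at 1.65 to 1.67, while for leucine and glutamate scramble replicate 3 lies apart from scramble replicates 1 and 2.

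Genes that act next to the synthetases were counted in the same fit, where 5.64% of all genes fell and 5.89% rose. With all libraries, none of 4 genes that amidate or formylate mitochondrial transfer RNA passed in edgeR, DESeq2 or limma-voom. None had an unadjusted edgeR p under 0.05, and GATC, a subunit of the amidotransferase, was at 0.09 (edgeR adjusted p = 0.772). With scramble replicate 3 left out 3 of the 4 passed as higher, GATC at 0.17 (0.00691). Over all genes 25.7% then passed as higher and 23.8% as lower. Of 7 editing and synthetase-like genes 1 fell, DTD1, which removes D-amino acids from transfer RNA. It had 75.6, 73.4 and 72.4 CPM in the knockdown, against 118, 119 and 163 CPM in scramble, a log2 fold change of -0.85 (adjusted p = 0.0124). The call was lost when any 1 of the knockdown libraries was left out, with an adjusted p of 0.0885 at the highest. AARSD1, an alanyl-tRNA editing protein, was at -0.27 (0.455), and at -0.044 (0.622) without scramble replicate 3. In that fit 2 of the 7 passed as lower and 1 as higher.

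Of 6 cytosolic elongation factor genes, whose products bring charged transfer RNA to the ribosome or move it there, 1 fell. EEF1A2, a form of the factor best known from muscle and nerve, had 25.4, 21.0 and 19.9 CPM in the knockdown libraries, against 63.2, 62.7 and 97.5 CPM in the scramble libraries. Its log2 fold change was -1.75 ± 0.22 (SE, n = 3 each; edgeR adjusted p = 0.00114), and it passed without any 1 of the 6 libraries. The abundant EEF1A1 was at -0.07 (adjusted p = 0.824), and at 0.090 (0.00215), higher, without scramble replicate 3. In that fit 5 of the 6 passed as higher and EEF1A2 as lower, where 25.7% and 23.8% of all genes did. Of 9 mitochondrial translation factor genes none passed in edgeR, DESeq2 or limma-voom with all libraries and no GC correction. In edgeR 1 had an unadjusted p under 0.05. TUFM, the mitochondrial elongation factor Tu, was at 0.12 (adjusted p = 0.756), and at 0.34 (9.39e-08) without scramble replicate 3, where 5 of the 9 passed as higher and 1 as lower.

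Of 22 genes for the processing and export of transfer RNA 1 rose, POP5, a subunit of ribonucleases P and MRP, with 15.4, 17.4 and 14.7 CPM in the knockdown, against 7.71, 8.17 and 11.4 CPM in scramble. Its log2 fold change was 0.80 (edgeR adjusted p = 0.0296), and it passed only without scramble replicate 3 among the 6 fits that leave out a library. XPOT, the exportin of transfer RNA, had a log2 fold change of -0.21 (adjusted p = 0.663), and of -0.47 (2.25e-10) without scramble replicate 3. In that fit 10 of the 22 passed as higher and 3 as lower, where 25.7% and 23.8% of all genes did.

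Of 15 genes of the amino acid response 8 fell and none rose, with a median log2 fold change of -0.61, where 5.64% of all genes fell. This list was also drawn up with earlier results of these data known, so the count is a description. DDIT3, a stress-induced transcription factor, had 38.6, 42.4 and 42.0 CPM in the knockdown libraries, against 93.5 to 136 CPM in the scramble libraries, and fell by 1.42 on the log2 scale (edgeR adjusted p = 0.00131). TRIB3, a pseudokinase induced by ATF4, had 342, 325 and 342 CPM in the knockdown, against 641, 654 and 961 CPM in scramble, a change of -1.16 (adjusted p = 0.00349). ASNS, asparagine synthetase, had 266, 254 and 266 CPM, against 448, 412 and 560 CPM in scramble, a change of -0.85 (0.0078). DDIT3 and TRIB3 passed in all 6 fits that leave out a library, while ASNS missed the threshold when any 1 of the knockdown libraries was left out (0.0658 at the highest). With scramble replicate 3 left out 11 of the 15 passed as lower and 2 as higher, where 23.8% and 25.7% of all genes did. In none of these 3 genes did knockdown and scramble libraries overlap.

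MARS1 and DDIT3 lie tail to tail on opposite strands and share 62 exonic bases in GENCODE v29. Exons of 18 of the 40 members overlap another gene there, 17 of them on the opposite strand, among them YARS1, WARS1, HARS1 with HARS2, and SARS2. Whether counting used the strand is not given in the sources used here, so reads in these stretches cannot be told apart.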

How the data were processed

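Per the labels' protocols, RNA was extracted with Trizol and made into TruSeq libraries on oligo-dT beads. Per the submitters' processing notes, the tools were BWA, Bowtie2 and RSEM and the build hg19. The role of each aligner and the tool versions were not stated in these sources. The deposited expected counts (estimated counts per gene) and FPKM values were made by the authors, who scaled FPKM for length and depth, per the file headers. The depth of each of the 6 libraries, 10229890 or more counts, limits low genes, but the smallest count of a member was 73.

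Genes were named by Entrez ID through RefSeq (20727 matched, 97 not). Expected counts were rounded and tested with edgeR 4.0.16 in R 4.3.3 (filterByExpr with a minimum count of 10 and total of 15, TMM, glmQLFit and glmQLFTest, no covariates), with Benjamini-Hochberg adjustment over 14812 genes. FPKM served for levels per length, for sums over lists and for the pair ratios, which were compared between groups, with no pseudocount. SDs are over 3 libraries. The procedure was also run on simulated counts in which no library stood apart. That run cannot show how the procedure deals with scramble replicate 3. Alternatives were RLE and upper-quartile scaling, no filter, at least 1 CPM in 3 libraries, a replicate block, each library left out, DESeq2 1.42.0, limma-voom 3.58.1, a GC spline with 5 degrees of freedom on 14231 genes, and a pseudocount of 1 FPKM for the pairs. GC content came from GENCODE v29 transcripts.

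Members and lists were chosen with earlier results of these data known. Values are given for every called member, the most and least abundant, the 4 pairs that differ most, and, of each related list, up to 3 called genes and the most abundant uncalled one. Some members, and 1 pair, are counted in the lists but not reported singly here. Other members given with values in each library were chosen after these were seen.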

Additional observations from a re-analysis of the deposited data

How the results depend on the processing

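When 1 library at a time was left out, the number of genes called ran from 729 to 7439, of cytosolic synthetases from 0 to 17, mitochondrial synthetases 0 to 10, scaffold proteins 0 to 1, complex members 0 to 8, free cytosolic synthetases 0 to 10, class I 0 to 9, class II 0 to 8 and listed ATF4 targets 0 to 12. Of the related lists, transamidation and formylation ran from 0 to 3, editing 0 to 3, elongation factors 1 to 6, mitochondrial factors 0 to 6, transfer RNA processing 0 to 13 and the amino acid response 2 to 13. The highest of each came without scramble replicate 3. The median log2 fold change ran from -0.17 to -0.044 for cytosolic and from 0.018 to 0.25 for mitochondrial genes, and that of C19orf12 from -1.08 to -0.73.

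With the GC correction 4435 genes were called, with 11 cytosolic, 6 mitochondrial, 1 scaffold, 5 complex, 7 free, 7 class I, 4 class II and 9 listed ATF4 genes, and 2 editing, 2 elongation factor, 1 mitochondrial factor and 7 transfer RNA processing genes. The cytosolic median was -0.11. DESeq2 and limma-voom each called 1 mitochondrial synthetase. For transfer RNA processing RLE called 2, DESeq2 3 and limma-voom 2 genes, and for class II limma-voom called 1. The cause was not tested.

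The deviations of same-numbered libraries from their group means had correlations of -0.0239, -0.0181 and -0.0232. Because scramble replicate 3 stood apart in its group, these values cannot show whether same-numbered libraries share a culture or batch. With the replicate block 1654 genes were called, with 5 cytosolic synthetases (AARS1 did not pass, adjusted p = 0.052), 1 class II and 2 transfer RNA processing genes, and DDIT4 and PSAT1 did not pass.

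Among genes not called, upper-quartile scaling turned KARS1 (-0.026), MARS2 (-0.020) and YARS2 (-0.023), and the GC correction turned KARS1 (-0.10), LARS1 (-0.12), MARS2 (-0.045), RARS2 (-0.12), VARS2 (0.037), YARS2 (-0.011) and EEF1E1 (-0.20). Leaving out libraries also gave both signs, from the lowest to the highest log2 fold change, in AIMP1 (-0.35 to 0.050), CARS2 (-0.073 to 0.25), EEF1E1 (-0.089 to 0.12), EPRS1 (-0.13 to 0.35), FARS2 (-0.015 to 0.38), FARSA (-0.016 to 0.32), FARSB (-0.20 to 0.092), HARS1 (-0.16 to 0.043), KARS1 (-0.083 to 0.17), LARS1 (-0.24 to 0.22), MARS2 (-0.074 to 0.10), NARS1 (-0.14 to 0.32), SARS2 (-0.0032 to 0.40), VARS1 (-0.28 to 0.051), VARS2 (-0.18 to 0.12) and YARS2 (-0.057 to 0.070). Without scramble replicate 3 the pair differences were -0.51 for glutamate, against 0.01 with all libraries, and -0.12 for threonine, against 0.30. Settings not mentioned here moved no count by more than 1.5 times. Genes with fewer than 10 counts per library could not be judged, and no member was among them.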
